A study of Oncorhynchus mykiss with 28 samples.

Results

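The clones described here are those whose mean signal in eggs obtained after hormonal induction of ovulation lay furthest from both other ovulation groups in the same direction. For each clone, the mean log2 signal of the hormonally induced (HI) eggs was set against the means of the naturally ovulated (N) and the photoperiod-manipulated (PM) eggs, and the smaller of the 2 differences was kept. The 75 clones with the largest smaller difference upwards and the 75 with the largest smaller difference downwards were taken, which gave 150 members. They came from 7865 clones that had a signal above 0 on all 28 arrays and were not listed in the tables of the study, out of 9023 clone rows. The members were chosen by these differences between HI eggs and the other groups, so the differences are given as a description and were not tested. Clones are called by their library names, which are not gene names. That 0 of the 150 members matched a name in the RefSeq gene table used here therefore does not mark them as unidentified. The study annotated the clones of the array by sequence comparison, but no annotation of the members was used here. No function or sequence is given for them.

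A fish egg carries a store of messenger RNA made by the mother during oogenesis, and the early embryo depends on that store until its own genome is transcribed. Ovulation, the release of the mature oocyte from its follicle, is normally set off by a surge of pituitary gonadotropin. Hormonal induction triggers that surge by injection of an analog of gonadotropin-releasing hormone (GnRH), whereas a photoperiod regime shifts the season at which the females ovulate by themselves. Egg quality was scored by the percentage of normal alevins, that is, of eggs that gave a larva without malformation at the end of yolk-sac resorption.

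All females were rainbow trout (Oncorhynchus mykiss) of an autumn-spawning strain, and each array was hybridised with egg RNA of a single female, taken before fertilization. The N group (4 females, not manipulated) gave between 95.9 and 98.8% normal alevins. The HI group (10 females, injected with a GnRH analog under natural photoperiod) ranged from 2 to 95.4%, and the PM group (14 females under an artificial light regime, not injected) from 0 to 93.8%. Females are named by group and replicate number, and the numbers rank the HI and the PM females by quality. The study had 1 further HI sample, which was not analysed here, and no sample numbered HI6 was used. All HI eggs were collected in 2004 and all N and PM eggs in 2003, so the year of collection and the injection cannot be told apart. The labels give N1 and PM4 an identical female number. Without these 2 arrays the same rule kept 58 of the 75 higher clones and 49 of the 75 lower ones. The signal is the radioactive intensity of a spot on a nylon membrane. It was corrected by the authors for spotted DNA and divided by the array median, then quantile normalized here on the log2 scale, so that 0 is near the median clone of an array. The interquartile range of the deposited log2 signal was 1.44 ± 0.07 (SD, n = 10) on the HI arrays, 1.52 ± 0.19 (n = 4) on the N arrays and 1.59 ± 0.11 (n = 14) on the PM arrays. Quantile normalization equalizes that range. On the log2 signal without it, the rule kept 53 of the higher and 41 of the lower clones. Markers of oocytes, follicle cells or blood could not be read, as names of the clones beyond the tables of the study were not used here.

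**Figure D1:**
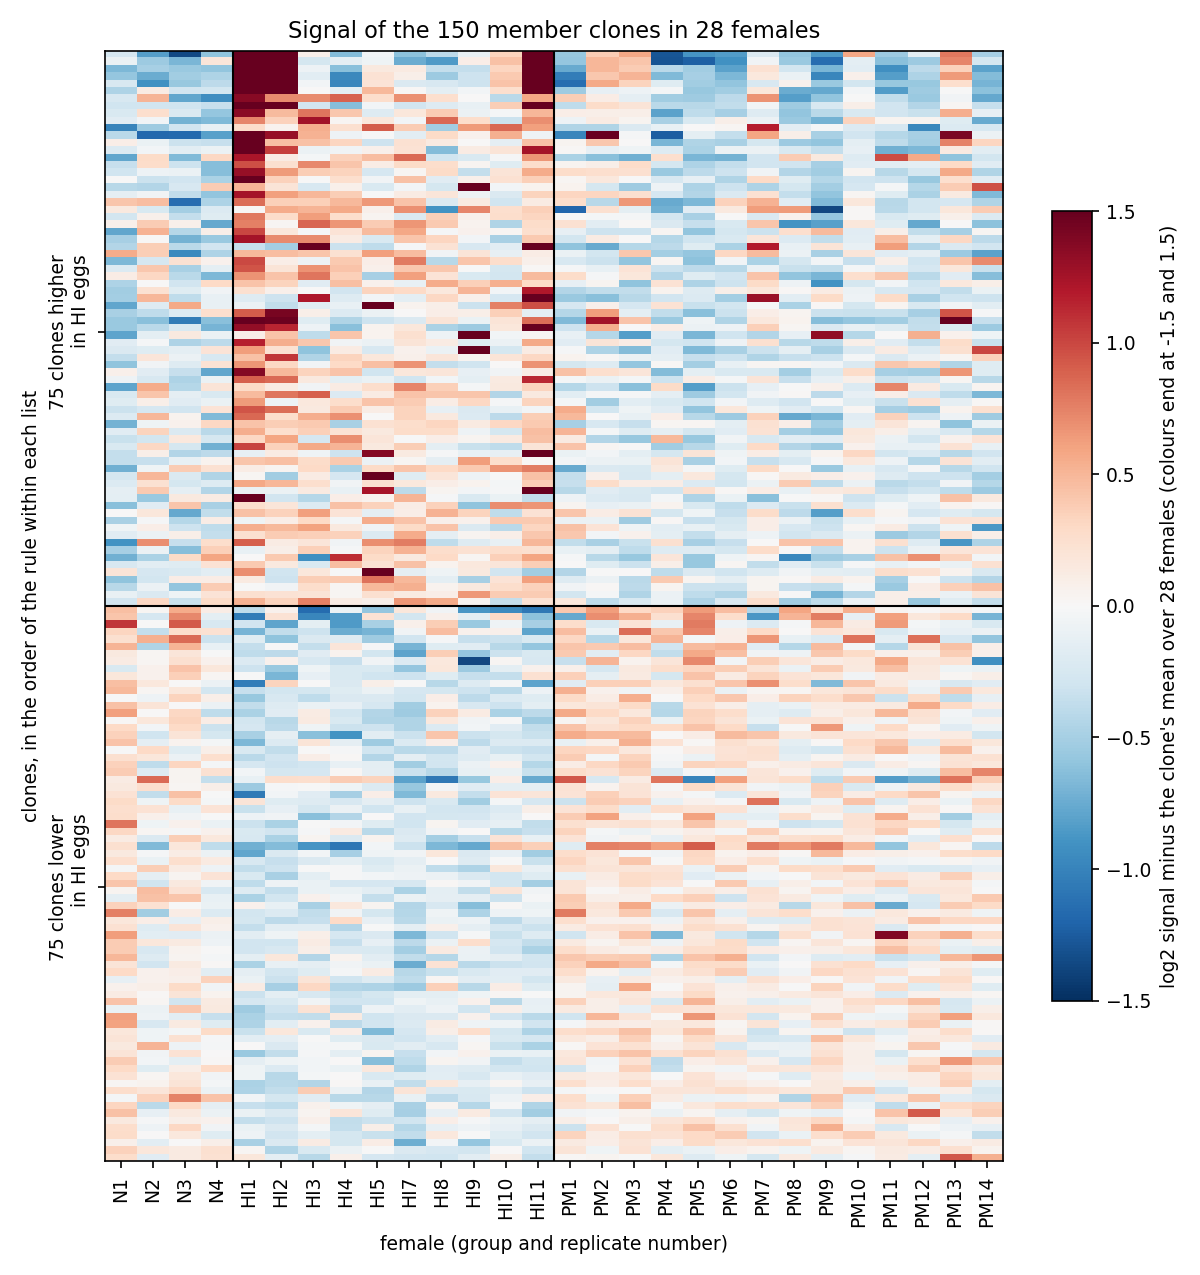
Log2 signal of the 150 members (rows, in the order of the rule within each list) in 28 females (columns), as the difference from the mean of each clone. Red is above that mean and blue below it. In the upper list the strongest red lies in a few HI columns, foremost HI1, HI2 and HI11, while the lower list is paler.

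The differences were larger in the higher list than in the lower list. Among the 75 higher clones, the difference HI minus N had a median of 0.43 on the log2 scale (0.30 to 1.47) and HI minus PM a median of 0.40 (0.31 to 1.09). Among the 75 lower clones, the medians were -0.29 (-0.78 to -0.24) against N and -0.30 (-0.79 to -0.24) against PM. At the edge of the higher list, 1RT87D10_D_B05 was the last clone inside with a smaller difference of 0.304, and 1RT60I09_A_E05 the first outside with 0.302. At the edge of the lower list, tcac0006.m.09 was inside with 0.240 and tcav0002.i.03 outside with 0.239. The edge of each list is therefore a position in a continuous ranking. The rule used both the N and the PM means, but did not rank their difference. PM minus N had a median of 0.03 in the higher list, with PM above N in 44 clones and below in 31. In the lower list the median was 0.00, with 39 above and 36 below, against 0.00 over all clones. Differences of opposite sign cancel in these medians, so they do not show that N and PM were alike in each clone.

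In no member were the HI eggs set apart from every other egg. The lowest HI female was above all N and PM females in 0 of the 75 higher clones, and the highest HI female was below all of them in 0 of the 75 lower clones, as in 0 of the 7865 clones (0%) in either direction. Against the 4 N females alone the HI females did not overlap in 2 clones of each list, where 0.0509% of all clones were separated upwards and 0.14% downwards. Those were 1RT152B03_B_A02 and 1RT151F02_D_C01 in the higher list and 1RT28I11_A_E06 and 1RT155E20_C_C10 in the lower list, named after their values were seen. The rule used these same means, so the counts describe how far the selection reached and nothing is read from them. Of the higher clones, 49 had 1 to 3 HI females above every N and PM female, 22 had 4 to 6, 2 had 7, and 2 had none. Of the lower clones, 31 had 1 to 3 HI females below every N and PM female, 34 had 4 to 6, 4 had 7 or 8, and 6 had none. All 10 HI females lay above the PM median in 15 of the higher clones, and all 10 lay below it in 38 of the lower clones. At least 8 of the 10 did so in 65 of the higher and 69 of the lower clones. No share over all clones is given for these counts of females per clone. They follow largely from the means that the rule used, and nothing is read from them.

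The clone with the largest smaller difference was 1RT94M04_C_G02, with log2 signals of -0.73, -1.31, -1.83 and -1.08 in the 4 N females. Its 10 HI females gave 2.48, 2.30, -0.41, -1.13, -0.52, -1.10, -0.87, -0.59, -0.14 and 2.27 (HI1 to HI5, then HI7 to HI11), and the PM females ranged from -1.76 to 0.31 with a median of -1.0. HI1, HI2 and HI11 were thus far above all other eggs, and the remaining 7 HI females lay within the range of the N and PM females. The mean was 0.23 ± 1.50 (SD, n = 10) in HI, -1.24 ± 0.46 (n = 4) in N and -0.77 ± 0.64 (n = 14) in PM eggs, which is a 2.77-fold difference of geometric means from N and a 2.00-fold difference from PM. The second clone, 1RT93D06_D_B03, followed it closely, with 2.40, 2.16 and 2.43 in HI1, HI2 and HI11, between -1.29 and -0.003 in the other HI females, and at most 0.30 in any PM female.

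Next in the ranking came clones whose names begin with tcal, a prefix that few of the clones carry. The clone tcal0001.i.08 had N values of -0.41, -0.24, -0.30 and -0.33, values of 2.77, 2.51 and 2.89 in HI1, HI2 and HI11, between -0.36 and 0.58 in the 7 other HI females, and between -0.66 and 0.76 in PM eggs. Here again the same 3 females stood apart, and the others lay within the range of the PM females. The clones tcal0001.k.08 and tcal0001.o.16 reached 3.09 and 3.05 in HI11, and tcal0001.g.09 reached 1.96 in HI1. Of the 8 tcal clones among all 7865 (0.102%), 5 were in the higher list (6.67% of it), the fifth being tcal0001.k.01. The sources used here do not say whether the inserts of these clones overlap, so they are not counted as independent measurements of different genes.

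This profile recurred beyond the tcal clones. Over the 10 HI females, 12 clones, that clone included, had a correlation above 0.9 with tcal0001.i.08, and 10 of them were members of the higher list. Besides the 4 tcal clones and the 2 leading 1RT clones these were tcad0009.a.22, tcbk0025.c.19, tcbk0036.j.06 and tcag0002.a.15. The other 2, tcad0005.a.14 (r = 0.99) and tcac0001.f.14 (r = 0.95), were not members. In all 10 members the lowest of HI1, HI2 and HI11 was above every other HI, N and PM female. The gap to the next HI female ran from 0.69 in tcbk0036.j.06, where HI1, HI2 and HI11 had -1.02, -1.08 and -0.79 and HI3 came next with -1.77, to 2.42 in 1RT94M04_C_G02. The 10 clones were picked for likeness to a clone with these 3 females far above, so the separation follows largely from that choice. No share over all clones is given for it, and nothing is read from it. The profile was noticed in these values and was not tested. These 3 females had 2, 19.7 and 95.4% normal alevins, so the set holds the poorest and the best eggs of the HI group. Among the 14 PM females the correlation of the other 9 members with tcal0001.i.08 ranged from 0.45 in tcbk0036.j.06 to 0.94 in tcal0001.k.08. For the 2 clones that were not members it was 0.31 (tcad0005.a.14) and 0.51 (tcac0001.f.14). The highest PM female was PM2, PM7 or PM13 in each of the 10 members, which is a description of these clones without a share over all clones.

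**Figure D2:**
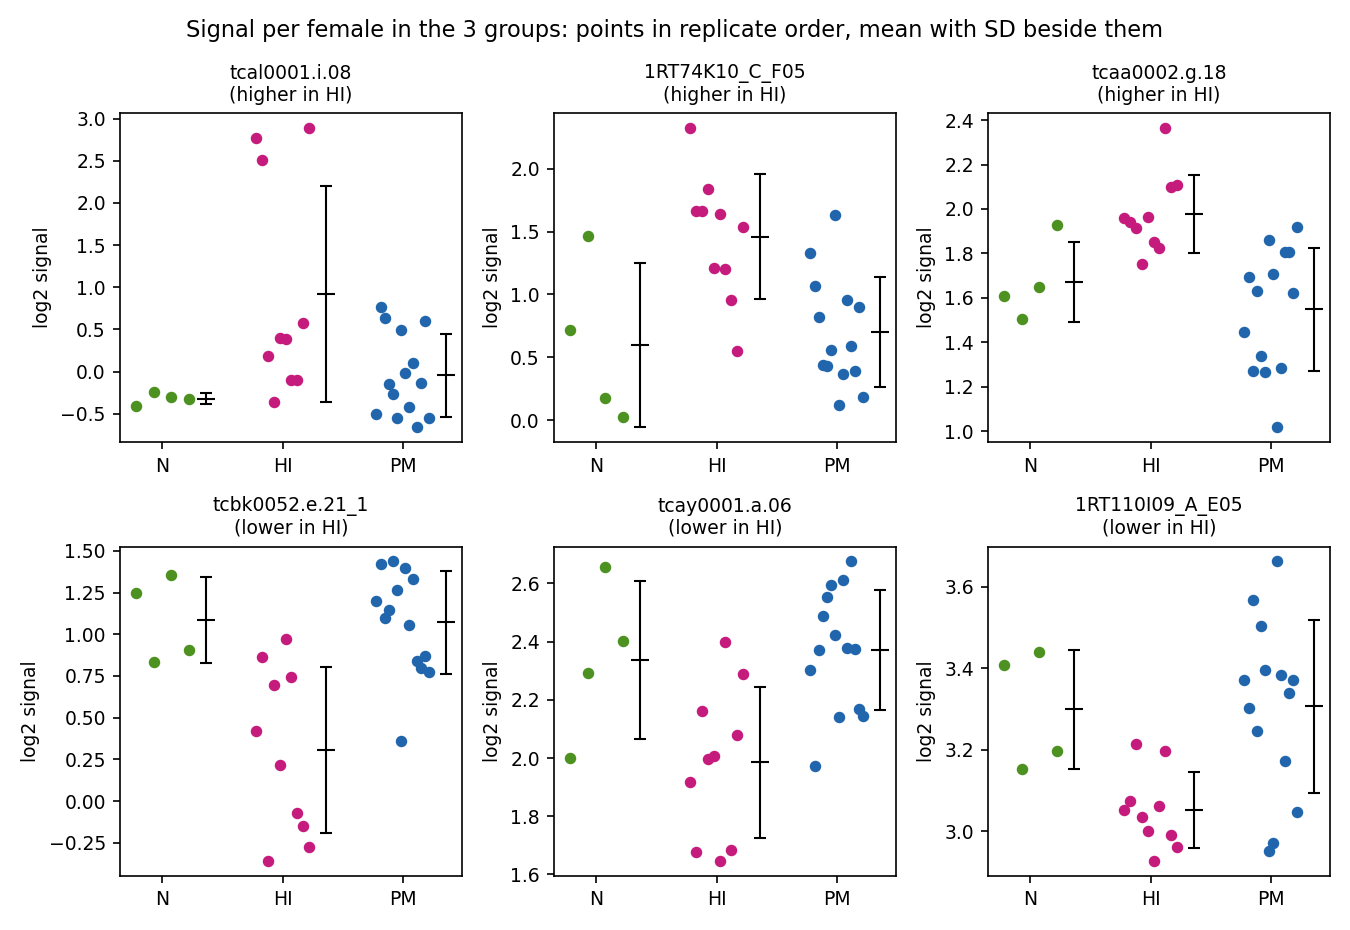
Log2 signal per female of 3 clones of the higher list (upper row) and 3 of the lower list (lower row), with the group mean and SD (N, n = 4, HI, n = 10, PM, n = 14). In tcal0001.i.08 the HI mean rests on 3 females above 2.5, while in tcaa0002.g.18 and 1RT110I09_A_E05 the HI females are closely grouped.

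Other leading clones differed from this profile. In 1RT74K10_C_F05, the N females had 0.72, 1.46, 0.18 and 0.02, the HI females ranged from 0.55 (HI10) to 2.33 (HI1) with a median of 1.59, and the PM females from 0.12 to 1.63 with a median of 0.57. The HI mean was 1.46 ± 0.50 (SD, n = 10) and the PM mean 0.70 ± 0.44 (n = 14), and 5 HI females exceeded every N and PM female. In 1RT50M23_A_G12, HI3 was highest with 1.25, followed by HI8 with 0.86, and 5 HI females exceeded the highest PM value of 0.33. In 1RT52F20_D_C10, HI1 (1.12) and HI3 (0.56) were above all N and PM females, and the remaining HI females, from -0.43 to 0.26, overlapped with them. The clone tcaa0002.g.18 had the smallest spread among the HI females of the higher list. Its HI values ran from 1.75 to 2.36 (1.98 ± 0.18, SD, n = 10), its N values were 1.61, 1.51, 1.65 and 1.93, and its PM values ran from 1.02 to 1.92 (1.55 ± 0.28, n = 14). There, 6 HI females exceeded every N and PM female and the other 4 lay within the range of the N females.

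In some members of the higher list the HI mean was raised by a single female. In tcbk0035.l.16, HI1 had 2.56 and the next HI female 0.16. In tcba0027.a.08, HI5 had 1.53 and the next -0.46. In 1RT118J04_D_E02 and 1RT118K14_C_F07, which carry the same plate number, HI9 had 1.80 and 1.81, and the next HI female in both was HI1 with -0.59 and -0.39. These 4 clones were named after their values were seen. Plate 1RT118 held 16 of all the clones and 5 members of the higher list, the most of any 1RT plate, and in another clone of it, 1RT118K04_C_F02, HI1 was far above the others with 1.17 against -0.07. By Dixon's ratio, 1 HI female stood apart in 12 of the higher clones (16%) and in 2 of the lower clones (2.67%), against 6.12% of all clones. A single high female raises the mean that the rule ranks, so the share in the higher list is a description of the selection.

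Among the HI females, HI1 contributed most often to the higher list. It had the highest HI signal in 30 of the 75 higher clones (40.0%, against 12.8% of all clones) and was above every N and PM female in 52, against 8.12% of all clones. HI11 was the highest in 12 members (7.27% of all clones) and above every N and PM female in 32 (5.52% of all clones). HI2 was the highest in 2 members (7.84% of all clones) and above every N and PM female in 31 (5.65% of all clones). HI8, HI9 and HI10 were above every N and PM female in the fewest members, 6, 10 and 12, against 4.78, 5.23 and 4.90% of all clones. For the lower clones, HI1 was below every N and PM female in 40 of the 75 members, HI7 in 37, HI11 in 35 and HI2 in 34, where 9.94, 8.06, 7.74 and 7.65% of all clones had these females there. HI7 had the lowest HI signal in 24 members (8.52% of all clones) and HI8 the highest HI signal in 24 (11.5% of all clones). The rule used the means of these females, so these counts are a description of the selection.

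The leading clone of the lower list was tcbk0052.e.21_1, with N values of 1.25, 0.83, 1.36 and 0.91. Its HI values ran from -0.36 to 0.97 with a median of 0.32, and its PM values from 0.36 (PM7) to 1.44 with a median of 1.12. The mean was 0.31 ± 0.50 (SD, n = 10) in HI, 1.09 ± 0.26 (n = 4) in N and 1.07 ± 0.31 (n = 14) in PM eggs, that is, 1.70-fold lower in HI than in PM eggs. In it 5 HI females were below every N and PM female, HI2 and HI7 (0.87 and 0.97) lay within both groups, and HI8 (0.74) lay within the PM females only. A row with the same name and no suffix, tcbk0052.e.21, was rank 11 of the higher list, with a mean of 0.57 ± 0.42 in HI, -0.31 ± 0.38 in N and 0.02 ± 0.46 in PM eggs. The pair went in opposite directions over the 28 arrays (r = -0.68), including PM7, which was high in tcbk0052.e.21 (1.35) and low in tcbk0052.e.21_1, and HI8, with -0.35 and 0.74. In the 5 other pairs of such names among all clones, none of them in a list, r ran from -0.20 to 0.43. The rule placed tcbk0052.e.21 and tcbk0052.e.21_1 in opposite lists, so r over 28 arrays includes the contrast it used. Over the 10 HI females alone their r was -0.66, and that of the 5 other pairs ran from -0.08 to 0.39. The sources used here do not say what the suffix stands for.

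The differences after that clone were smaller. For tcbk0017.j.22, N values were 0.57, -0.09, 0.89 and 0.01, HI values ran from -0.89 to 0.46, and PM values from -0.71 to 0.93, so that the groups overlapped over most of their range. For tcav0002.f.22, N values were 1.65, 0.57, 1.50 and 0.35, HI values ran from -0.26 to 0.95 and PM values from 0.35 to 1.36, and 6 HI females were below every N and PM female. For tcbk0053.c.06 the HI females lay between -0.31 and 0.27 (SD 0.17) and the N and PM females were widely spread (SD 0.50 and 0.45). The remaining 6 of the leading 10, tcay0011.h.10, tcbk0051.e.07, tcbk0031.d.23, tcay0041.o.22, tcay0001.a.06 and tcay0036.l.11, had smaller differences of 0.35 to 0.42, with 1 to 5 HI females below every N and PM female. The clone tcad0003.l.03, chosen after its values were seen, had the most such females. Its HI values ran from -0.65 to -0.30, its N values were -0.06, -0.41, -0.06 and -0.17, and 8 HI females were below every N and PM female. The smallest spread among HI females was that of 1RT110I09_A_E05, with HI values of 2.93 to 3.21 (3.05 ± 0.09, SD, n = 10). Its PM values ran from 2.95 to 3.66 (3.31 ± 0.21, n = 14) and its N values were 3.41, 3.15, 3.44 and 3.20, so only 1 HI female was below all others.

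Library and plate were read here from the clone names. By these names the members were spread over the libraries of the array, with some unevenness. The higher list came from 60 plates and the lower list from 65 of 328 plates. Clones of the 1RT library made up 42.7% of the higher list and 26.7% of the lower list, against 36.1% of all clones. Clones of the tcbk library made up 16% of the higher and 37.3% of the lower list, against 22.3% of all clones. These shares were not tested.

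The spread over females differed between the lists. The SD of log2 signal among the 10 HI females had a median of 0.43 in the higher list (0.18 to 1.50), 0.20 in the lower list (0.09 to 0.55) and 0.21 over all clones. It was above 0.5 in 28 of the higher clones (37.3%) and 3 of the lower clones (4.0%), against 1.45% of all clones. Leaving out each HI female in turn, the number of higher clones above 0.5 ran from 22 without HI1 to 31 without HI3 or HI4, and that of lower clones from 2 to 4. Among the 14 PM females the median SD was 0.30 in the higher and 0.22 in the lower list, against 0.21 over all clones. Among the 4 N females it was 0.34 in the higher and 0.23 in the lower list, against 0.21 over all clones. The rule ranked differences that contain the PM and N means. Spread within those groups is thus not independent of the choice of the clones either. The SD among HI females exceeded that among PM females in 57 of the higher clones (76%) and 38 of the lower clones (50.7%), against 53.2% of all clones. A few very high HI females raise both the mean and the SD, so the wide spread of the higher list among HI females is a description of which clones the rule took.

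**Figure D3:**
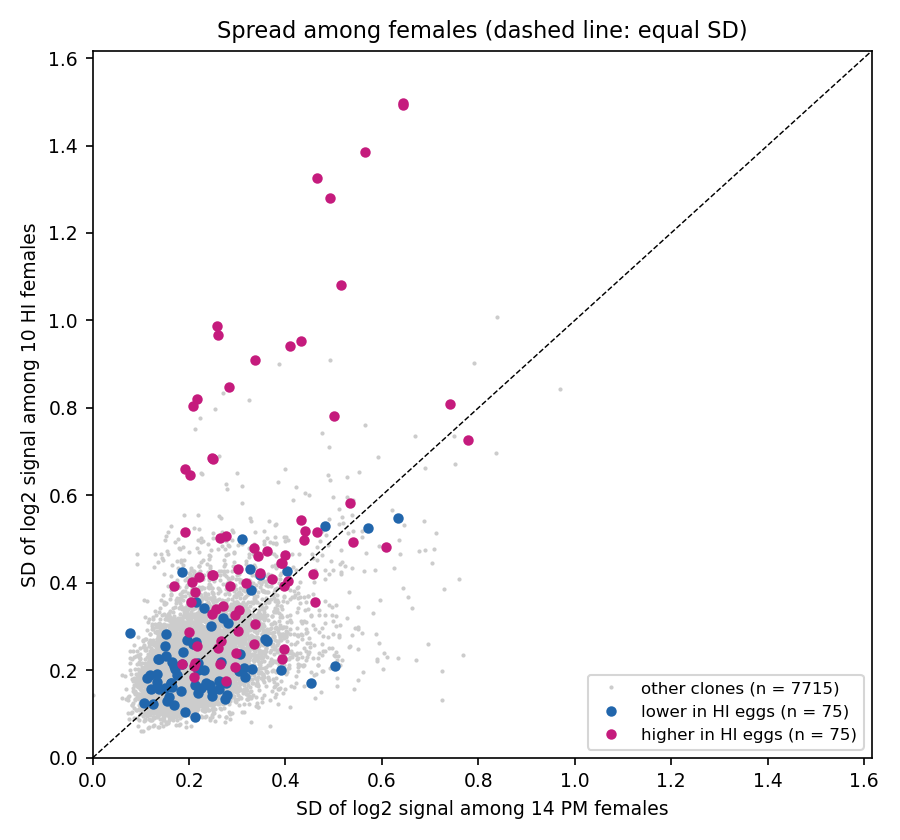
SD of log2 signal among the 10 HI females (vertical axis) against the SD among the 14 PM females (horizontal axis) for each clone, with the 75 higher and 75 lower members over the 7715 other clones. Members of the higher list reach an SD of 1.50 among HI females, and those of the lower list stay at or below 0.55.

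Members of one list also varied together among the HI females. The median correlation between pairs of clones over the 10 HI females was 0.20 in the higher list and 0.13 in the lower list, and 0.00 over all clones. Over the 14 PM females it was 0.12, 0.10 and 0.00. The rule used the means of these females, and a few high HI females raise that mean in many higher clones. The values over the HI females are therefore in part a result of the selection. The points also share arrays and, within some plates, neighbouring library positions, so these values describe the lists only.

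The mean over each list gave a value for each female. The mean log2 signal of the 75 higher clones was 1.22 in HI1, 0.88 in HI2, 0.62 in HI3, 0.47 in HI4, 0.61 in HI5, 0.59 in HI7, 0.41 in HI8, 0.48 in HI9, 0.43 in HI10 and 1.04 in HI11. It was 0.04, 0.33, 0.06 and 0.16 in the 4 N females, and ranged from 0.01 to 0.45 with a median of 0.19 in the PM females. HI1, HI2 and HI11 were the highest 3, and HI8 and HI10 were below the highest PM females, PM7 and PM13 (0.45 each). The mean of the 75 lower clones ranged from 0.03 (HI7) to 0.27 (HI8) in HI eggs, was 0.62, 0.33, 0.53 and 0.34 in N eggs, and ranged from 0.37 to 0.59 in PM eggs. That HI eggs did not overlap with the others in this mean follows from the choice of the clones. HI3 and HI4, whose alevins were most often malformed (55.6 and 40.9%), had list means of 0.62 and 0.47 in the higher and 0.21 and 0.16 in the lower list, within the range of the other HI females.

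**Figure D4:**
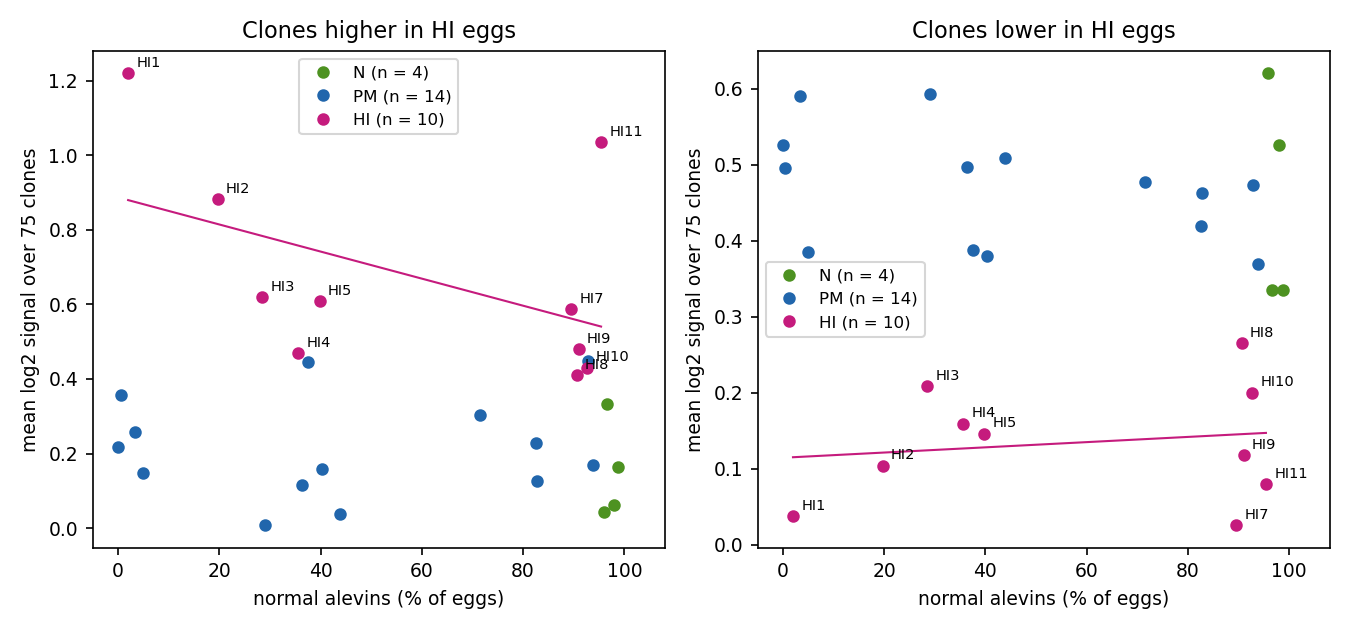
Mean log2 signal over the 75 higher clones (left) and the 75 lower clones (right) in each female against the percentage of normal alevins, with the least squares line through the 10 HI females. In the left panel HI1, with 2% normal alevins, and HI11, with 95.4%, lie at the top at opposite ends of the quality axis.

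The rule did not use the percentage of normal alevins, but it used the HI signals through their mean. HI1, with the poorest eggs, was the highest HI female in 30 of the 75 higher clones (12.8% of all clones). In the lower list, HI7 was the lowest HI female in 24 clones (8.52% of all clones) and HI8 the highest in 24 (11.5% of all clones). The slopes of both lists within HI are therefore not independent of the choice of the clones, and their counts are a description. The relation to egg quality within the HI group was tested with limma by regressing log2 signal on that percentage, adjusted over all 7865 clones. Slopes are the change in log2 signal per 10 percentage points of normal alevins. None of the 75 higher or 75 lower clones was called (0 of 7865 clones, 0%, lowest adjusted p = 0.841 by limma with Benjamini-Hochberg adjustment), and 441 clones (5.61%) had an unadjusted p under 0.05. In the higher list the slope was negative in 54 clones and positive in 21, with a median of -0.043, against a median of 0.00 and 49.5% negative slopes over all clones. An unadjusted p under 0.05 with a negative slope was reached by 18 higher clones, where 2.67% of all clones did so, and with a positive slope by 1, where 2.94% did. In the lower list 30 slopes were negative, the median was 0.004, and the unadjusted threshold was passed by 1 clone with a negative and 2 with a positive slope. The mean of the higher list had a slope of -0.036 (SE 0.024, 10 females) and that of the lower list 0.0034 (SE 0.0073).

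These slopes leaned on the female with the poorest eggs, which was also the highest HI female in many of the clones. Without HI1, 6 of the 18 higher clones had an unadjusted p under 0.05 with a negative slope and no other higher clone did, 1.41% of all clones passed in that direction, 212 passed in either direction, and the median slope of the higher list was -0.014. The slope of the list mean was -0.011 (SE 0.024) without HI1 and -0.056 (SE 0.017) without HI11. Without HI11, 33 higher clones had an unadjusted p under 0.05 in either direction, where 4.91% of all clones did, against 19 and 5.61% with all 10 females. Over the other 8 females left out in turn this count ran from 17 to 26, and the share of all clones from 4.65 to 7.67%. With the percentage of eyed embryos in place of normal alevins, where HI1 had 3% and the other HI females 47 to 100%, 32 higher clones had a negative slope at an unadjusted p under 0.05 (3.98% of all clones) and 7 without HI1 (1.78% of all clones).

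The higher clones with the lowest p differed in how far HI1 stood above the other HI females. In 1RT24D21_B_B11, HI1 to HI5 had 1.90, 1.79, 1.10, 1.34 and 1.07 and HI7 to HI11 had 1.29, 0.84, 0.74, 0.84 and 0.91. The females with under 40% normal alevins were thus above those with over 89%, HI7 excepted. Its slope was -0.089 (SE 0.021, unadjusted p = 0.0006, adjusted p = 0.841 by limma), and -0.072 (SE 0.025, unadjusted p = 0.0099) without HI1. In 1RT99F24_D_C12, HI1 had 1.60, HI2 to HI5 between 0.74 and 1.17, and HI7 to HI11 between 0.21 and 0.97, with a slope of -0.093 (SE 0.023, adjusted p = 0.841) and -0.074 (SE 0.026) without HI1. In 1RT160G11_A_D06 the values ran from 0.20 in HI10 to 1.67 in HI1, and the next HI female had 1.03. Its slope was -0.088 (SE 0.023, adjusted p = 0.841 by limma), and -0.055 (SE 0.024) without HI1. Among PM females the slopes of these 3 clones were -0.012 (SE 0.023), 0.004 (SE 0.022) and -0.045 (SE 0.022).

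The clone 1RT99F24_D_C12 was also among those most like 1RT74K10_C_F05 over the HI females. With a correlation above 0.9 there were 8 clones, 1RT74K10_C_F05 included, of which 3 were members, the other being 1RT147P17_B_H09 (r = 0.97). The slope of 1RT74K10_C_F05 was -0.095 (SE 0.027) within HI and -0.039 (SE 0.029) within PM. The clone 1RT139F11_B_C06, which is RPL24 (part of the ribosome's large subunit) in the tables of the study and so could not be a member, correlated with it at r = 0.86 over the 10 HI and 0.91 over the 14 PM females. By r over the HI females it was rank 28, below the threshold of 0.9. Another ribosomal clone of those tables, tcbk0027.b.05 (RL10), had r = 0.73 over the HI and 0.32 over the PM females. Clones of those tables that are not ribosomal came near these values. For tcbk0049.m.03 (OSBPL5) r was 0.67 over the HI and 0.86 over the PM females, and for 1RT147H01_B_D01 (GMCL1) 0.65 and -0.009. All these table clones were named after their values were seen. No identity of 1RT74K10_C_F05 is read from these values. The leading clones with the 3 high females had negative slopes with wide errors, such as -0.152 (SE 0.093) for 1RT94M04_C_G02 and -0.105 (SE 0.082) for tcal0001.i.08, since HI11 had the best eggs. The clone 1RT152B03_B_A02, with 3.37 in HI1, 2.58 in HI2 and between 1.12 and 1.80 in the other HI females, had a slope of -0.133 (SE 0.038, adjusted p = 0.841 by limma). On eyed embryos it was the single clone of 7865 called (slope -0.217, SE 0.029, adjusted p = 0.00487), and without HI1 the slope on eyed embryos was -0.212 (SE 0.059) with an adjusted p of 1.00.

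In the lower list, the lowest p belonged to tcbk0020.m.10, which also had the largest spread among HI females of that list (SD 0.55). Its HI1 to HI5 values were 0.59, 0.97, 0.95, 1.09 and 1.04 and its HI7 to HI11 values -0.09, -0.37, 0.13, 0.80 and -0.05. All females with over 89% normal alevins except HI10 were below the N values of 0.83, 1.55, 0.74 and 0.34, and those with under 40% were within them. The slope was -0.107 (SE 0.029, adjusted p = 0.841 by limma), and -0.145 (SE 0.031) without HI1. For tcay0011.h.10 the HI slope was positive, 0.068 (SE 0.027, adjusted p = 0.841), with HI1, HI2, HI3, HI4 and HI5 at -0.18, 0.15, 0.20, -0.23 and -0.18 and HI8 highest at 0.98. For tcay0009.g.09 it was 0.075 (SE 0.033, adjusted p = 0.866), with HI10 and HI11 highest at 0.43 and 0.33.

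**Figure D5:**
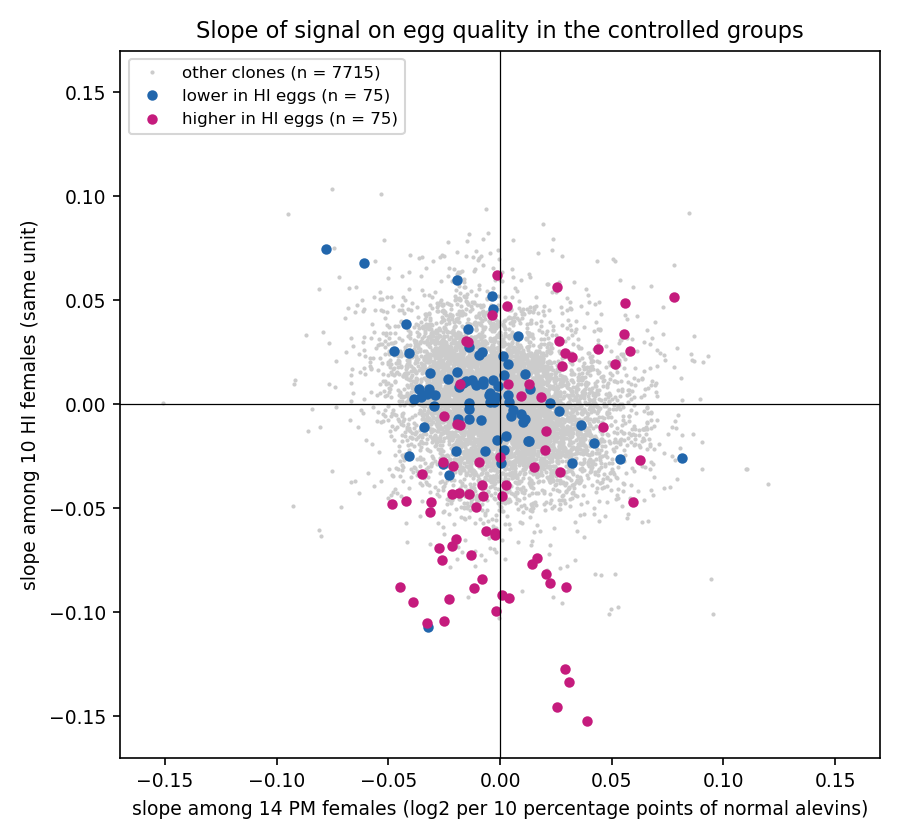
Change in log2 signal with egg quality among the 10 HI females (vertical axis) against the same slope among the 14 PM females (horizontal axis), both per 10 percentage points of normal alevins, for the 75 higher and 75 lower members and the 7715 other clones. The higher members extend downwards to -0.152 on the HI axis and lie on both sides of 0 on the PM axis.

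Within the PM group the members were not called either (0 of 7865 clones, 0%, lowest adjusted p = 0.167 by limma, 1085 clones or 13.8% with an unadjusted p under 0.05). In the higher list 39 of the 75 PM slopes were negative, with a median of -0.001, and the unadjusted threshold was passed by 2 clones with a negative slope (6.50% of all clones) and 4 with a positive slope (7.30% of all clones). Of the lower clones, 50 PM slopes were negative, and 8 passed with a negative and 3 with a positive slope. Over all clones 52.3% of the PM slopes were negative. In either direction the higher list had 6 such clones, 11 without PM4, 11 without PM13 and 2 without PM14. The lower list had 11, and 15 without PM7, 15 without PM10 and 7 without PM14. Of all clones, 15.5% passed without PM4, 13.3% without PM7, 17.1% without PM10, 11.2% without PM13 and 10.6% without PM14. The list means had PM slopes of 0.0036 (SE 0.011) and -0.0082 (SE 0.0056) over 14 females. The rule used the PM signals through their mean, so the PM counts of the members are a description as well.

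The difference of the slopes, PM minus HI, was tested in 1 fit and called no clone (0 of 7865, 0%, lowest adjusted p = 0.152 by limma, 1081 clones or 13.7% with an unadjusted p under 0.05). This difference contains the HI slope, which in both lists was not independent of the choice of the clones. The counts for both lists are therefore a description. In the higher list 10 clones had a positive difference at an unadjusted p under 0.05, where 6.27% of all clones did, and none had a negative difference. In the lower list 4 had a positive and 8 a negative difference, where 7.48% of all clones had a negative one. Without HI1 the count for the higher list in either direction was 2 (7.67% of all clones), without PM13 it was 5 (11.5%) and without HI11 it was 20 (13.1%). The lowest p in the higher list were those of 1RT99F24_D_C12 (difference 0.097, SE 0.033, adjusted p = 0.216) and 1RT47J08_D_E04 (0.102, SE 0.038, adjusted p = 0.231). Those of the lower list were tcay0011.h.10 (-0.129, SE 0.034, adjusted p = 0.165) and tcad0004.p.09 (-0.073, SE 0.022, adjusted p = 0.190). In tcay0011.h.10 the PM females with the poorest eggs, PM1 to PM5, had 0.98, 0.42, 1.35, 0.92 and 1.25, and PM11 to PM14 had 0.29, 0.47, 0.39 and 0.42, and its PM slope was -0.061 (SE 0.019, adjusted p = 0.192) beside the HI slope of 0.068. A slope in 1 group and not in the other was therefore not shown to differ for any member in this fit. A setting with a block on the replicate number called tcay0009.g.09, as given below.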

How the data were processed

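The authors hybridised 33P-labelled cDNA of eggs of individual females to nylon cDNA arrays. Per the study's methods they left out spots with a low vector oligonucleotide signal, corrected spots for the DNA they held and then scaled every array to its median. The deposited values are these intensities on a linear scale, and the sources used here do not say how duplicate spots were combined. Depth does not apply to arrays, and the number of arrays limits the precision.

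Of 9216 rows, 193 vector, water and other rows were left out. A 0 (6.59% of clone values, in 1108 clone rows) removed the clone. The 7865 remaining clones outside the study's tables were log2 transformed and quantile normalized over 28 arrays, and 75 were taken in each direction from group means. Slopes were fitted with limma 3.58.1 in R 4.3.3 (threshold 0.05, Benjamini-Hochberg over all 7865 clones) within HI, within PM and for their difference. The study used SAM, which was not run here. The clones and lists were chosen with earlier results of these data known. Clones named are, in each list, the first 10 by the rule, the last inside and first outside, those with the lowest p for the slopes, and the largest and smallest SD among HI females. Others are named after their values were seen. The fits were also run on simulated data with slopes of known size. The share of those slopes recovered is not given here, so a fit that called no clone does not show that slopes were absent. Figures were drawn with matplotlib 3.10.9. Samples were grouped from their labels, and p-values measure the spread between females.

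Alternatives were other scalings and filters, a pseudocount of 0.1, group medians, linear ratios, other measures of quality, variance models, array weights, each array left out in turn and a block on the replicate number. The replicate numbers rank females by quality and pair nothing.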

Additional observations from a re-analysis of the deposited data

Results flagged for a closer look

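Dixon's ratio was applied within the N and the HI group of each of the 150 members and the list means, 304 groups in all. In 25 groups 1 female stood apart from the others of its group. About 15.2 would be flagged by chance in groups not chosen by their values. The members were chosen by the means of these groups, so 15.2 is no valid reference and nothing is read from the 2 counts. The largest gaps were in the HI group of the higher list. In tcbk0035.l.16 HI1 had a log2 signal of 2.56 and the next HI female 0.16, and in 1RT118J04_D_E02 HI9 had 1.80 against -0.59. In 1RT118K14_C_F07 HI9 had 1.81 against -0.39, and among its N females N4 had -0.81 against -1.16. In tcba0027.a.08 HI5 had 1.53 against -0.46, and in 1RT48P14_D_H07 HI5 had 0.77 against -0.82. HI9 was also apart in tcay0022.a.22, with 1.18 against -0.16. HI1 was apart in 1RT118K04_C_F02 (1.17 against -0.07), in tcaa0002.d.07 (2.71 against 1.52) and in 1RT52O19_A_H10 (1.42 against 0.53). HI7 was apart in tcba0015.p.10, with 1.67 against 1.30. On the low side, HI8 had 0.95 against 1.86 in 1RT118G10_C_D05, and HI4 had 1.77 against 2.38 in tcac0001.a.09.

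In the lower list, HI9 had -0.74 against 0.28 in tcay0041.o.22, and HI4 was high in tcba0008.j.16 with -0.71 against -1.08. Among the 4 N females, N2 was low in tcay0011.h.10 (0.16 against 0.75), N3 was low in tcbi0009.m.10 (-1.15 against -0.84) and N1 was high in tcbk0017.k.06 (-1.22 against -1.93).

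In the higher list, N4 was the high female in 1RT24D21_B_B11 (1.16 against 0.70) and in tcay0035.j.21 (1.30 against 0.92), and N2 in 1RT54C08_C_B04 (0.56 against 0.01), tcay0017.p.05 (0.57 against 0.14) and tcba0027.a.14 (-1.61 against -2.05). N3 was high in tcbk0057.i.03 (-1.22 against -1.64) and low in 1RT151F02_D_C01 (-0.98 against -0.56). Flags in the N group were as frequent as 10.7% of the higher and 4.0% of the lower clones, against 5.53% of all clones.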

How the results depend on the processing

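Of the members higher in HI eggs, 34 of 75 were kept with arrays scaled to 1 median absolute deviation and 44 with group medians. Of the members lower in HI eggs, 41 were kept with median-scaled signal, 37 with group medians and 49 without N1 and PM4. The other settings for these lists kept 53 to 74 and 62 to 74. Leaving out each array in turn kept 53 to 74 of the higher and 43 to 72 of the lower clones, the fewest without N2, and 49 of the lower clones without N1. In all 28 of these settings 22 and 18 clones were kept. The first 10 of each list were kept in every setting run, except 1 clone of the higher list with group medians and 1 of the lower list without HI9. The rule value of the 22 leading and last members kept its direction in every setting. Of all members, 1 of the higher list and 0 of the lower list had a rule value at or below 0 with group medians. That member was tcbk0035.l.16 (-0.049).

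The slope on normal alevins within HI called 1 clone on eyed embryos in place of normal alevins, a member of the higher list, and 0 in every other setting, eyed embryos without HI1 included, which was added after the data were seen. The slope within PM called 1 clone without PM1, no member. PM slope minus HI slope called 2 clones without HI5, no members, and 6 with the replicate block, of which 1 was a member, tcay0009.g.09 (difference -0.229, SE 0.035, adjusted p = 0.0196 by limma). Same-numbered HI and PM females share only a rank. Their deviations correlated between -0.23 and 0.22, and 2 of 10 HI females correlated best with their own number. The list mean slope within HI, higher list, was -0.067 (SE 0.022) on eyed embryos and ran from -0.056 without HI11 to -0.011 without HI1, and that of the lower list from -0.0023 without HI1 to 0.0072 without HI7. No other setting called a clone.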
